A study of Mus musculus with 203 samples.

Results

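The results concern 10 genes of the circadian clock, Arntl, Clock, Per2, Per3, Cry1, Cry2, Nr1d1, Nr1d2, Dbp and Tef, in the lungs of mice. They were picked by gene symbol from a table of 43346 gene identifiers, all 10 were found once each, and all 10 passed the filter on low counts at both times. RNA-seq was performed on airway and parenchyma tissue of female Balb/C mice aged 18 to 20 weeks. Airway and parenchyma of each lung had been parted by blunt dissection. At 3 weeks the mice had received house dust mite extract (HDM), an allergen used to model asthma, or phosphate buffered saline (PBS), intranasally on 5 days per week, giving 11 PBS and 10 HDM airway libraries and 12 PBS and 10 HDM parenchyma libraries. At 11 weeks there were 8 exposures with 10 libraries in each tissue. These were PBS or HDM intranasally, combined with normal air (AIR) or cigarette smoke (CS), an exposure used to model chronic obstructive pulmonary disease, with or without the synthetic glucocorticoid dexamethasone (DEX) in week 11. HDM or PBS was then given 3 times per week from week 4 on, and smoke or air 2 times per day on 5 days per week for 8 weeks. The controls were thus PBS at 3 weeks and PBS.AIR at 11 weeks.

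The circadian clock is a loop of transcription factors that runs in almost every cell. ARNTL (also called BMAL1) and CLOCK bind DNA as a pair and switch on the Per and Cry genes, whose proteins then hold the pair back, so that each gene rises and falls over a day. The same pair switches on Nr1d1 and Nr1d2, encoding the REV-ERB repressors that shut Arntl off, and Dbp and Tef, encoding PAR bZIP factors that drive clock output genes. In the coordinates of mm10 with GENCODE annotation, Arntl (ENSMUSG00000055116.7) lies at chr7:113207465-113314126 on the plus strand and Clock (ENSMUSG00000029238.8) lies at chr5:76209868-76304792 on the minus strand. Per2 (ENSMUSG00000055866.9) lies at chr1:91415982-91459324 on the minus strand and Per3 (ENSMUSG00000028957.8) lies at chr4:151003652-151044665 on the minus strand. Cry1 (ENSMUSG00000020038.9) lies at chr10:85131700-85185064 on the minus strand and Cry2 (ENSMUSG00000068742.7) lies at chr2:92403646-92434043 on the minus strand. Nr1d1 (ENSMUSG00000020889.11) lies at chr11:98767932-98775333 on the minus strand and Nr1d2 (ENSMUSG00000021775.10) lies at chr14:18204054-18239127 on the minus strand. Dbp (ENSMUSG00000059824.6) lies at chr7:45705088-45710203 on the plus strand and Tef (ENSMUSG00000022389.10) lies at chr15:81802421-81826863 on the plus strand. In the lung, clock genes have been linked to the timing of inflammation and of the response to glucocorticoids.

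Short DNA motifs bound by factors of the loop occur near the starts of some of these genes, and 6 stretches that hold one are shown, 1 for each gene with a match, 5 before a start site and 1 just behind one. Windows of 250 bases before and 50 bases after annotated starts were taken from RefSeq on GRCm38.p6, where 9 of the 10 genes had 13 windows, and Per2 had none. The motifs searched, on both strands, were the E-box CACGTG and the related CACGTT, both bound by CLOCK and ARNTL, the D-box TTATGTAA or TTACGTAA, bound by DBP and TEF, and the RORE TAGGTCA or TGGGTCA, bound by the REV-ERB and ROR receptors. Capitals mark the motif, CACGTT reading AACGTG on the opposite strand, and positions count from the start site.
Cry1, chr10:85185089-85185153, minus strand, positions -99 to -35: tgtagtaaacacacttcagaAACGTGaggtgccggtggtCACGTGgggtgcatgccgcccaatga
Cry2, chr2:92434205-92434260, minus strand, positions -191 to -136: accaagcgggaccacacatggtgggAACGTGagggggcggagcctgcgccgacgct
Nr1d1, chr11:98775380-98775430, minus strand, positions -53 to -3: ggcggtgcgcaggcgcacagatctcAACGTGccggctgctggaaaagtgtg
Tef, chr15:81802534-81802563, plus strand, positions -139 to -110: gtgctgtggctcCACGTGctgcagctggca
Per3, chr4:151044801-151044885, minus strand, positions -220 to -136: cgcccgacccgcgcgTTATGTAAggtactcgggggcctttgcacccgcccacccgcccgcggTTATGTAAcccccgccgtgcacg
Arntl, chr7:113207531-113207557, plus strand, positions 21 to 47 of its second start: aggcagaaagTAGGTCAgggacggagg
Cry1 thus held both E-box forms, Per3 held 2 D-boxes and Arntl a RORE. The window of the second start of Tef also held CACGTG, at position -138, and is not shown. Of all 32851 windows, 7.15% held CACGTG, 4.68% CACGTT, 1.06% a D-box and 6.45% a RORE. A match is one of letters only and was not tested as a binding site. The windows of Clock, Nr1d2 and Dbp held none of these motifs.

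Total counts ran from 13003154 to 40240733 per library over the libraries, with a median of 28090684. The lowest belonged to a library of HDM.AIR.DEX parenchyma with the code X32, which stood apart, and results at 11 weeks were also computed without it. Airway libraries of control mice held more of the marker RNA of airway epithelium, cartilage, smooth muscle and cardiac muscle and less alveolar and endothelial marker RNA than parenchyma at both times (for example 5 of 5 epithelial markers higher and 5 of 5 alveolar markers lower). Over all libraries the summed levels of each of these lists overlapped between the tissues. With HDM all 6 leukocyte markers were higher in both tissues at both times. Their summed level, in counts scaled to library size (CPM), was 4189 to 7160 with PBS and 7821 to 23410 with HDM in airway at 3 weeks, 6281 to 11380 against 17100 to 23680 in parenchyma, and 3933 to 10250 with PBS.AIR against 10770 to 21190 with HDM.AIR over both tissues at 11 weeks. All 3 endothelial markers were lower with HDM in each of these comparisons, and 4 of 5 alveolar markers were lower in both tissues at 3 weeks. The part of this shift in cell content in the results below was not tested, and in such bulk tissue fewer cells of a type and less RNA per cell cannot be told apart. None of the labels links an airway library to the parenchyma library of the same mouse. Every library carries a code from X1 to X204, and the mice were kept on a day-night cycle, but neither the hour nor the order of collection is given in the labels and methods used here.

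The genes differed widely in how far their levels ranged. Dbp ran from 1.47 CPM in a PBS.CS.DEX airway library (X135) to 168.7 CPM in a PBS parenchyma library at 3 weeks (X42), a 114.8-fold range, and its group medians differed 44.2-fold. Nr1d1 ranged 98.3-fold, Nr1d2 25.2-fold, Arntl 20.8-fold, Per3 17.8-fold and Per2 17.2-fold over the libraries. Tef and Cry1 ranged 8.10-fold and 6.86-fold, while Cry2 and Clock, at 3.72-fold and 3.55-fold, were the steadiest. Per kilobase of exon the median level over all libraries was highest for Tef (16.2 CPM per kb) and Nr1d2 (13.7) and lowest for Arntl (2.54) and Per3 (2.49).

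At 3 weeks HDM was associated with a changed level of nearly every clock gene. Clock genes rise and fall over a day, and the hour of collection is not given for the HDM or the PBS mice. Whether the hour differed between these groups, and its part in the differences at 3 weeks, was not tested. Under HDM, Dbp, Nr1d1, Nr1d2, Tef, Per3, Cry2 and Per2 fell and Arntl and Cry1 rose in both tissues. All 10 genes passed in airway, where 74.6% of the 17377 genes tested did, and 9 of 10 in parenchyma, where 77.7% did, so that passing was common among all genes at this time. With the libraries of both times in one fit the calls of Clock and Cry1 in airway were lost. The size of the change was the larger contrast. The median absolute log2 fold change of the 10 genes was 1.32 in airway and 1.66 in parenchyma, against 0.47 and 0.59 over all genes tested. A gene passed when its adjusted p in limma-voom was under 0.05.

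Among the output factors, Dbp ran from 100.5 to 161.2 CPM (median 127.3) in the 11 PBS airway libraries and from 13.0 to 27.1 CPM (median 20.4) in the 10 HDM airway libraries. In parenchyma its range was 114.5 to 168.7 CPM (median 140) with PBS and 11.6 to 34.1 CPM (median 20.1) with HDM. The lowest PBS library was thus well above the highest HDM library in each tissue. Its log2 fold change was -2.85 ± 0.14 (SE) in airway (adjusted p = 6.41e-21, limma-voom) and -2.89 ± 0.13 in parenchyma (adjusted p = 6.74e-22). Tef, its close relative, fell by 1.52 ± 0.11 and 1.76 ± 0.11 on the log2 scale, from medians of 274 and 340.0 CPM to 102.3 and 98.1 CPM.

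The REV-ERB repressors followed. Nr1d1 had 71.2 to 118.9 CPM (median 87.2) with PBS and 11.8 to 19.7 CPM (median 16.1) with HDM in airway, and 58.01 to 112.9 CPM (median 87.6) against 7.47 to 25.4 CPM (median 14.9) in parenchyma. No HDM library reached the lowest PBS library. The log2 fold changes of Nr1d1 were -2.50 ± 0.14 (SE) and -2.58 ± 0.14, with adjusted p of 2.09e-19 and 4.93e-20. Nr1d2 had medians of 269.9 and 354 CPM with PBS and of 77.81 and 77.95 CPM with HDM, and log2 fold changes of -1.82 ± 0.11 and -2.15 ± 0.10.

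Arntl, the target of these repressors, moved the other way. It had 3.85 to 9.80 CPM (median 5.82) with PBS and 11.1 to 16.8 CPM (median 12.5) with HDM in airway, and 3.83 to 7.05 CPM (median 4.55) against 9.33 to 16.6 CPM (median 12.8) in parenchyma. The groups did not overlap in either tissue, HDM being the higher. Arntl rose by 1.01 ± 0.12 (SE) log2 units in airway (adjusted p = 6.07e-10, limma-voom) and 1.30 ± 0.14 in parenchyma (adjusted p = 1.60e-11). Its partner Clock hardly moved: 0.19 ± 0.06 in airway, which passed (adjusted p = 0.00316, limma-voom) but not with both times in one fit (0.23, adjusted p = 0.0737), and -0.05 ± 0.06 in parenchyma (95% interval -0.16 to 0.07), which did not.

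The repressors of the Per and Cry families split. Per3 ran from 52.5 to 106.9 CPM with PBS and from 21.4 to 38.04 CPM with HDM in airway, and from 63.3 to 141.2 CPM against 21.7 to 41.7 CPM in parenchyma. It fell by 1.48 ± 0.13 (SE) log2 units in airway and by 1.94 ± 0.13 in parenchyma, with no overlap. Cry2 fell by 1.16 ± 0.07 and 1.57 ± 0.07, from medians of 67.1 and 74.2 CPM to 30.98 and 25.65 CPM, also with no overlap. Per2 fell by 0.66 ± 0.14 and 1.00 ± 0.14, with groups that overlapped in both tissues (PBS 32.3 to 95 CPM and HDM 31.5 to 45.9 CPM in airway). Cry1, in contrast, rose by 0.47 ± 0.08 (adjusted p = 4.50e-06) and 0.54 ± 0.09 (adjusted p = 6.40e-07), from medians of 20.4 and 17.9 CPM to 26.63 and 27.95 CPM. Its call in airway did not hold with both times in one fit (0.50, adjusted p = 0.0613, limma-voom). In all, 8 of the 10 genes had HDM and PBS libraries that did not overlap in airway and 7 of 10 in parenchyma, against 20.8% and 39.8% of all genes tested.

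**Figure D1:**
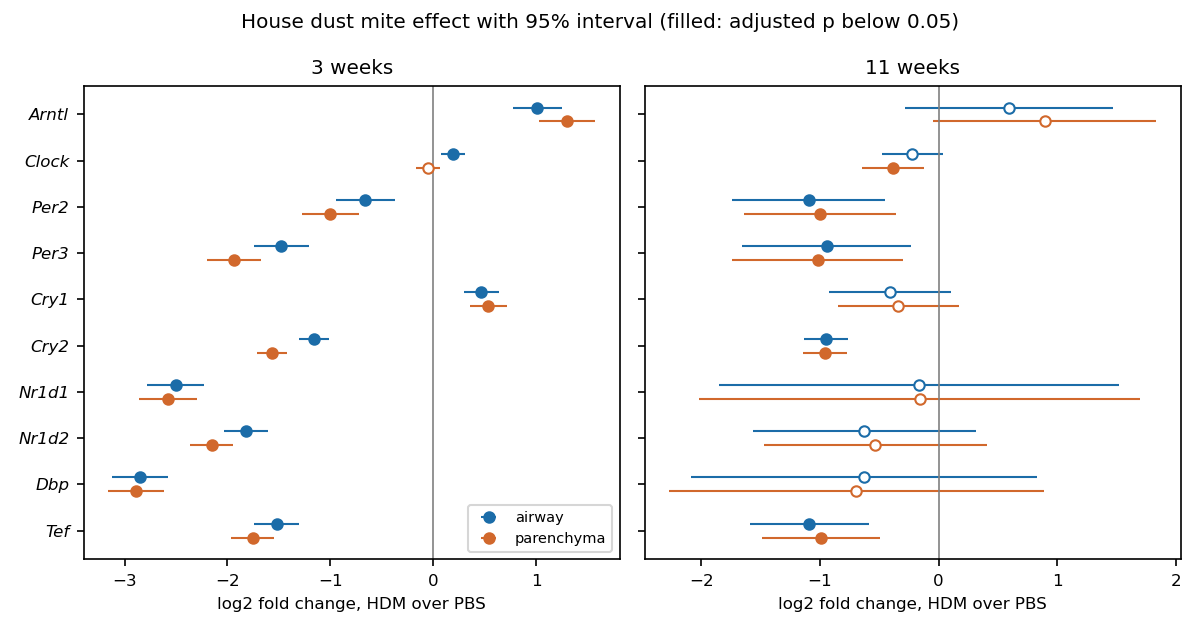
Log2 fold change of HDM over PBS (x axis) for each clock gene (y axis) at 3 weeks and at 11 weeks without smoke or DEX, in airway (blue) and parenchyma (orange), with 95% intervals from limma-voom and filled points for adjusted p under 0.05. The 3-week intervals are narrow and Dbp and Nr1d1 lie farthest below 0, while at 11 weeks the intervals of both genes span 0.

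The 3-week difference was also read along the series of codes. Within each run of 20 consecutive codes that held libraries of both groups, Dbp, Nr1d1, Nr1d2, Tef, Per3 and Cry2 were lower with HDM in 9 of 9 runs in airway and 10 of 10 in parenchyma, and Arntl and Cry1 were higher in all of them. The lack of overlap given above fixed the sign of these differences, except for Cry1 in parenchyma. For Dbp the smallest such difference was -2.47 log2 units in airway and -1.91 in parenchyma. The HDM effect differed between the tissues for 2 of the 10 genes, where 17.3% of all genes passed. Cry2 fell less in airway, by a difference of 0.40 ± 0.10 (SE) log2 units (adjusted p = 0.00575, limma-voom), and Clock differed by 0.24 ± 0.08 (adjusted p = 0.0361), a call lost under 5 of the alternative analyses.

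Other clock components were examined with a list of 18 genes. At 3 weeks 7 rose and 8 fell with HDM in airway, where 74.6% of all genes passed. In parenchyma 8 rose and 8 fell, where 77.7% of all genes passed. Nfil3, the repressor that competes with DBP and TEF for the D-box, rose by 2.09 and 2.69 log2 units. Hlf, the third PAR bZIP factor, fell by 1.83 and 1.94, and Rorb, a ROR receptor, fell by 2.47 and 2.22.

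In control mice at 3 weeks, 5 of the 10 genes differed between airway and parenchyma, where 56.1% of all genes did. Arntl was higher in airway, by 0.41 ± 0.14 (SE) log2 units, and Clock, Per2, Per3 and Nr1d2 were lower, by 0.22 to 0.39 log2 units. Each of these was smaller than the HDM effect on the same gene in parenchyma except for Clock, and the libraries of the tissues overlapped for every gene. With the libraries of both times in one fit none of the 5 passed. The median levels per kilobase of exon in these controls were highest for Nr1d2 (49.9 CPM per kb in airway and 65.4 in parenchyma) and lowest for Arntl (0.77 and 0.61), with Dbp at 42.5 and 46.8.

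At 11 weeks the same genes looked different, and the first difference was in their spread. The standard deviation of Dbp within groups was 0.32 log2 units at 3 weeks and 1.77 at 11 weeks, and that of Nr1d1 went from 0.33 to 1.57 and of Arntl from 0.31 to 0.96. Among 18528 genes Dbp had the 15th largest within-group standard deviation at 11 weeks, Nr1d1 the 45th and Nr1d2 the 281st. The median over all genes was 0.27 at both times, and Cry2 and Clock, at 0.21 and 0.30, were near it. In HDM.CS.DEX airway Dbp ran from 2.26 to 134.1 CPM, and in PBS.CS.DEX parenchyma from 1.56 to 112.2 CPM.

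**Figure D2:**
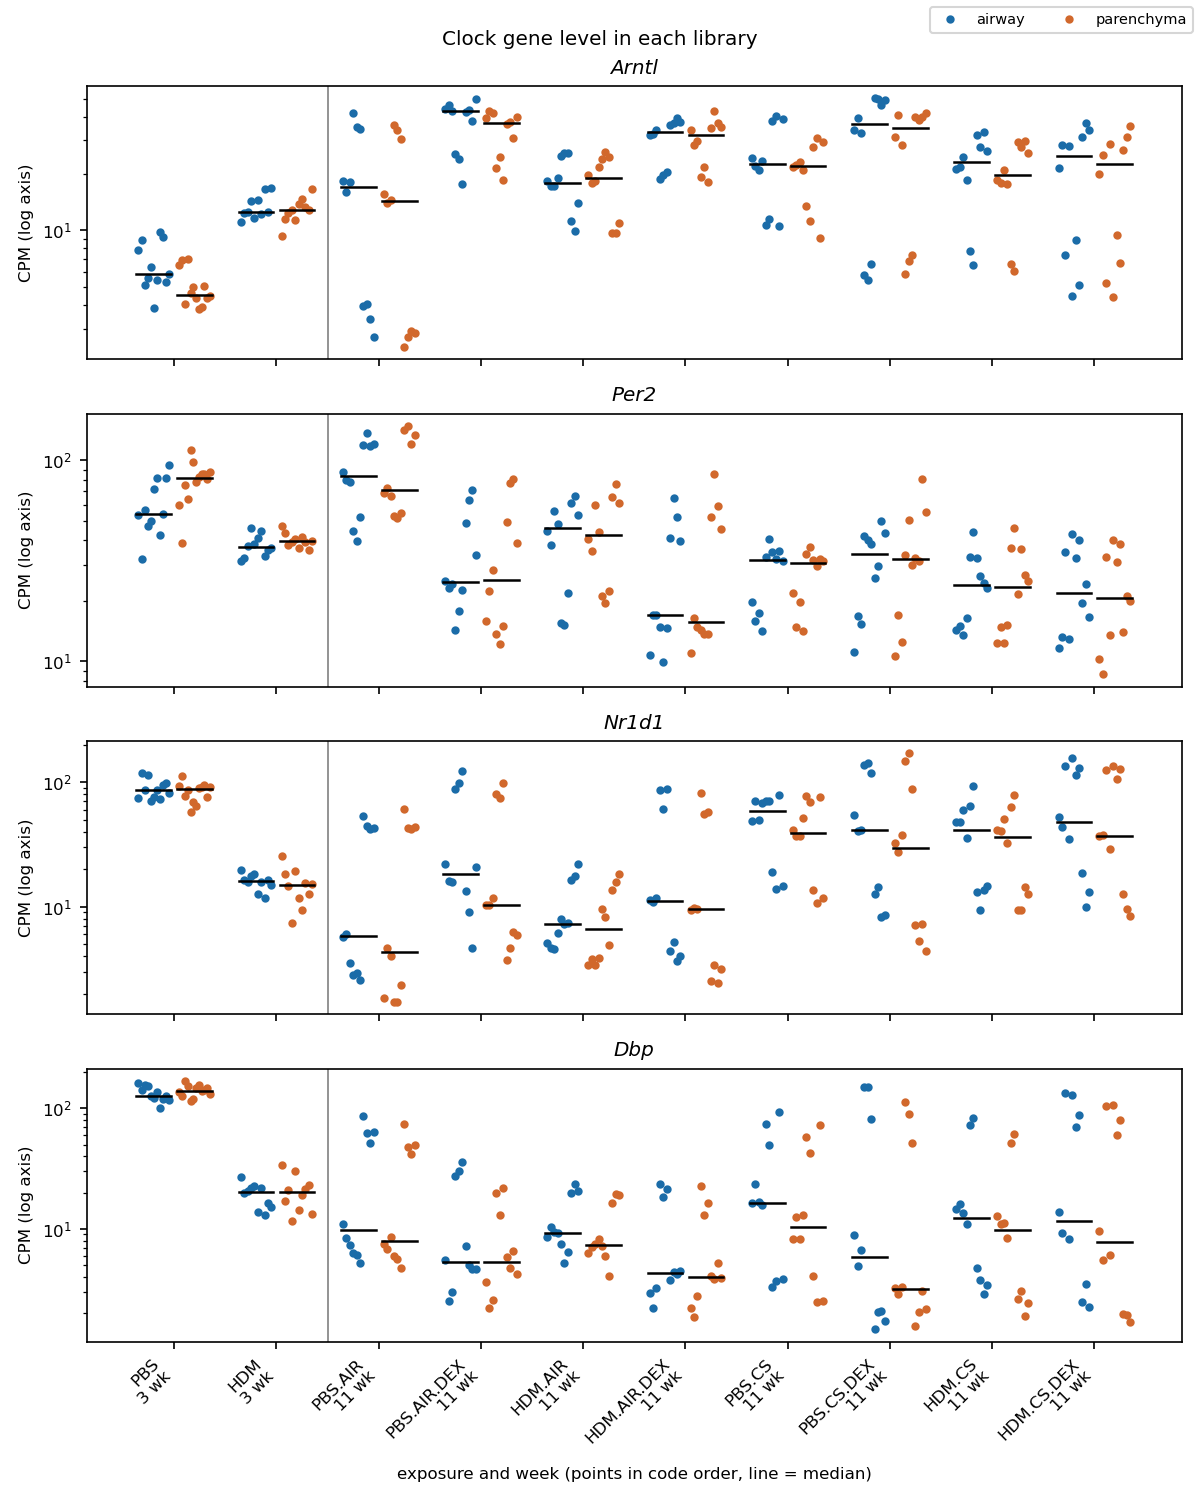
Level of Arntl, Per2, Nr1d1 and Dbp in every library, in CPM on a log axis, by exposure and week, for airway (blue) and parenchyma (orange), with points in code order and a line at the group median. At 3 weeks each group is a single cluster, whereas at 11 weeks the Dbp levels of most groups fall into sets several-fold apart.

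This spread showed runs of libraries that follow each other in code within a group. Some single libraries broke the runs. In HDM.CS.DEX airway Dbp was 134.1 CPM at code X59, against 9.24 CPM at X39 and 8.25 CPM at X79. In PBS.AIR airway, Dbp had 5.20 to 11.1 CPM in the 6 libraries with codes from X5 to X105 and 51.6 to 87.04 CPM in the 4 with codes from X125 to X185. Arntl in the same libraries had 15.9 to 18.2 CPM at codes X5, X25 and X45, 34.6 to 42.02 CPM at codes X65, X85 and X105, and 2.73 to 4.04 CPM from X125 to X185. High Dbp thus went with low Arntl, and Arntl split the low-Dbp libraries once more. Nr1d1 followed Dbp, with 42.3 to 53.2 CPM from code X125 and 2.57 to 6.06 CPM before it.

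Parenchyma libraries showed the same runs. In PBS.AIR parenchyma Dbp had 4.76 to 8.51 CPM at codes X6 to X106 and 41.4 to 73.9 CPM at codes X126 to X186, and Arntl had 14.0 to 15.5 CPM, then 30.5 to 36.4 CPM, then 2.40 to 2.90 CPM. The codes of the high run differed between exposures. In PBS.AIR.DEX airway Dbp was highest at codes X67, X87 and X107 (27.6 to 36.1 CPM, the others 2.51 to 7.23 CPM), and in HDM.AIR airway at codes X149, X169 and X189 (19.9 to 23.5 CPM, the others 5.26 to 10.3 CPM). In PBS.CS airway the libraries with the codes X93, X113 and X174 had 49.4 to 93.4 CPM and those with the codes X133, X153 and X193 had 3.29 to 3.82 CPM.

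**Figure D3:**
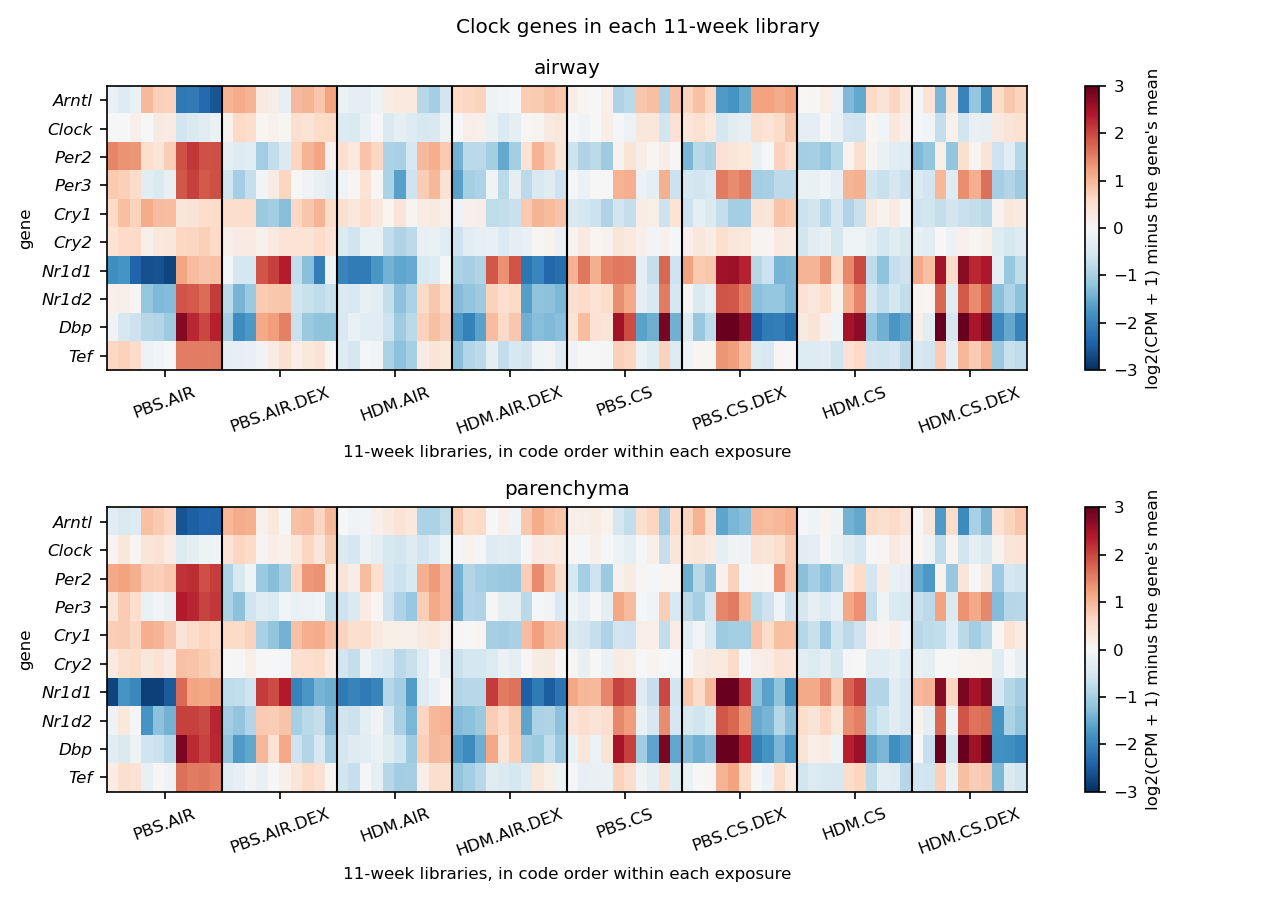
Colour gives log2(CPM + 1) of each clock gene (rows) in each 11-week library minus the gene's mean over the libraries of that tissue, with libraries ordered by exposure and, within it, by code, airway above and parenchyma below. Blocks of red and blue of 3 or 4 neighbouring libraries recur at the same places in both tissues, with Arntl opposite in colour to Dbp, Nr1d1 and Nr1d2.

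The widest gap between neighbouring values within a group measured this. At 11 weeks the widest gap in Dbp was 1.92-fold to 9.15-fold over the 8 airway groups (median 4.34-fold) and 1.99-fold to 15.7-fold over the 8 parenchyma groups (median 3.67-fold), whereas in the 4 groups at 3 weeks it was 1.09-fold to 1.30-fold. For Cry2 it stayed at 1.09-fold to 1.21-fold at 11 weeks. The libraries above the widest gap came from the same runs of 20 codes in both tissues for 7 of 8 exposures with Dbp, Nr1d1 and Arntl, and for 1 of 8 with Cry2.

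Airway and parenchyma libraries with neighbouring codes were therefore compared directly. The 79 such neighbours at 11 weeks had deviations from their group means that correlated with r = 0.98 for Dbp, Arntl and Nr1d2, 0.97 for Nr1d1 and Cry1, 0.95 for Per2, and 0.70 for Cry2, against a median of 0.34 over all genes. Among 21 neighbours at 3 weeks r was 0.39 for Dbp, 0.40 for Arntl and 0.65 for Cry1, against a median of 0.13. The labels do not say whether neighbours come from the same mouse. Such agreement was therefore read as a description only, and no p is given, as neighbours may share an animal. What the runs stand for was not tested, and since limma-voom takes libraries as independent, every p at 11 weeks rests on 10 libraries per group in which those of a run are taken as independent values.

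Within groups several of the genes moved together in a set pattern, Arntl on one side and Nr1d1, Nr1d2, Dbp, Tef and Per3 on the other. Per2 and Cry2 were less strongly opposed to Arntl over all libraries (r = -0.35 and -0.46). Over all libraries, the deviations of Arntl correlated with those of Nr1d2 at r = -0.92 (Spearman's rho -0.89), of Dbp at -0.90 (-0.90), of Per3 at -0.90 (-0.86) and of Nr1d1 at -0.82 (-0.79), and with Clock at 0.79 (0.77) and Cry1 at 0.58 (0.62). Dbp went with Nr1d2 at 0.94 (0.94), and Per3 with Tef at 0.95 (0.94). Per2 stood apart from Dbp at 0.23 (0.21) and was nearest to Cry2 at 0.74 (0.74) and Tef at 0.69 (0.71). The values were close in the tissues taken alone, Arntl with Dbp having r = -0.91 in the airway and -0.89 in the parenchyma libraries. At 3 weeks, where the spread was small, several of these correlations were much weaker. Arntl then had r = -0.40 with Dbp, -0.12 with Nr1d1, 0.09 with Clock and 0.005 with Cry1, whereas it kept -0.70 with Per3 and -0.55 with Nr1d2, and Per3 kept 0.85 with Tef. These libraries share depth scaling, codes and possibly animals, so the correlations are descriptions.

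**Figure D4:**
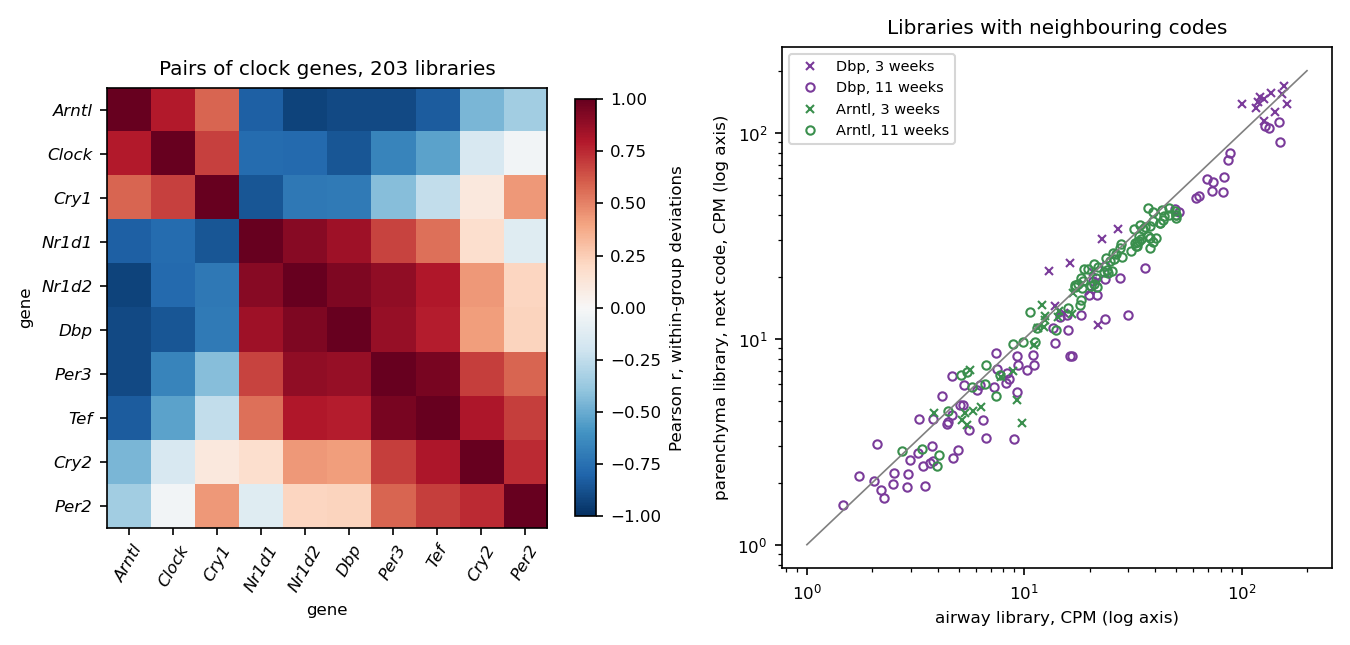
Left, Pearson r between the clock genes' deviations from group means over all libraries, from blue (-1) to red (1). Right, level of Dbp (purple) and Arntl (green) in each parenchyma library (y axis, CPM, log axis) against the airway library with the code just before it (x axis, CPM, log axis), with crosses for 3 weeks, circles for 11 weeks and a line of equal levels. The 11-week points of both genes follow the line over their whole range, those of Dbp mostly a little below it.

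The genes whose deviations were most like those of Dbp, among 15104 named genes with a mean level of 1 CPM or more, were Hdac11 (r = 0.85), which encodes a histone deacetylase, Sord (0.78), encoding sorbitol dehydrogenase, Tex11 (0.76), Rac3 (0.72) and Pik3ip1 (0.69). For Arntl they were Npas2 (0.94), which encodes a CLOCK paralog, Leo1 (0.88), Tmem171 (0.86), Dtx4 (0.86) and Nfil3 (0.84). Npas2 had r = -0.91 with Dbp. Csnk1d, Csnk1e and Btrc, whose products act on the PER and CRY proteins, had r between -0.22 and 0.11 with either gene.

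Against that background, HDM at 11 weeks without smoke was associated with lower Cry2, Per2, Per3 and Tef in both tissues. Of the 10 genes, 4 passed in airway, where 61.1% of 18250 genes did, and 5 in parenchyma, where 59.5% did, all of them lower. Cry2 ran from 53.8 to 79.8 CPM (median 73.2) with PBS.AIR and from 25.6 to 42.1 CPM (median 37.3) with HDM.AIR in airway, and from 57.9 to 88.2 CPM against 26.8 to 46.4 CPM in parenchyma. The groups did not overlap in either tissue, so that HDM.AIR had to be lower in 10 of 10 runs of 20 codes. Its log2 fold change was -0.95 ± 0.09 (SE) in both (adjusted p = 3.30e-17 and 1.96e-17, limma-voom).

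Per2 fell by 1.10 ± 0.33 (SE) log2 units in airway and 1.00 ± 0.33 in parenchyma, Per3 by 0.95 ± 0.36 (not called with sample quality weights, -0.59) and 1.02 ± 0.36, and Tef by 1.09 ± 0.26 and 0.99 ± 0.25, with overlapping groups throughout. Clock fell in parenchyma, by 0.38 ± 0.13. Dbp had -0.63 ± 0.74 (95% interval -2.09 to 0.83) in airway and -0.69 ± 0.80 (-2.27 to 0.89) in parenchyma, and was lower with HDM.AIR in 5 and 6 of 10 runs. Nr1d1 had -0.16 ± 0.85 and -0.16 ± 0.94, so that changes of several fold in either direction lay within the intervals. Of the 18 other clock genes, 3 rose and 8 fell in airway, where 61.1% of all genes passed. In parenchyma 5 rose and 9 fell, where 59.5% did. Bhlhe41, a repressor of CLOCK and ARNTL, was up by 1.70 and 1.72 log2 units in airway and parenchyma.

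The HDM effect itself differed between 11 and 3 weeks for 3 genes in airway, where 28.4% of 18528 genes passed, and 4 in parenchyma, where 42.4% did. Cry1, higher with HDM at 3 weeks, differed by -0.94 ± 0.34 (SE) log2 units in airway (adjusted p = 0.0284, limma-voom) and by -1.001 ± 0.35 in parenchyma (adjusted p = 0.0140). Clock differed by -0.47 ± 0.17 and -0.46 ± 0.17. Dbp, which of the 10 genes fell most at 3 weeks, differed by 2.16 ± 0.86 in airway (adjusted p = 0.0472), a call lost with edgeR (1.44, adjusted p = 0.25), with DESeq2, with no filter and without X32, and by 2.08 ± 0.90 in parenchyma (adjusted p = 0.0517). Cry2 and Nr1d2 differed in parenchyma, by 0.49 ± 0.13 and 1.496 ± 0.60. For the other clock genes this difference was above 0 for 3 and below 0 for 6 in airway, and above 0 for 2 and below 0 for 8 in parenchyma, with Nfil3 at -1.44 and -1.55 log2 units.

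The controls alone also differed between the times. In airway 5 of the 10 genes passed, where 44.3% of all genes did, and in parenchyma 7, where 55.4% did. Nr1d1 was lower at 11 weeks by 3.16 ± 0.62 (SE) log2 units in airway and 3.33 ± 0.68 in parenchyma, and Dbp by 2.97 ± 0.55 and 3.23 ± 0.57, the highest PBS.AIR library (87.04 and 73.9 CPM) lying below the lowest PBS library at 3 weeks (100.5 and 114.5 CPM). Cry1 was higher by 1.12 ± 0.24 and 1.26 ± 0.25, with no overlap, and Clock by 0.56 ± 0.12 and 0.63 ± 0.12. Nr1d2 was lower by 1.65 ± 0.44 and 2.16 ± 0.43, and Per3 and Tef were lower in parenchyma by 1.01 ± 0.30 and 0.56 ± 0.23, both calls being absent with edgeR and DESeq2. Of the other clock genes 8 were higher and 4 lower in airway and 7 higher and 3 lower in parenchyma. These controls differ at least in the weeks of treatment, in the intranasal schedule and in the exposure to AIR. The hour and order of collection are not given and may differ too, and the PBS.AIR libraries themselves fall into sets several-fold apart for Dbp. The parts of all these cannot be told apart.

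Between airway and parenchyma of the 11-week controls no clock gene passed in limma-voom, where 56.4% of all genes did. One of the 10 had an unadjusted p under 0.05, edgeR and DESeq2 also called 0, and the log2 differences ran from -0.27 (Clock) to 0.34 (Arntl). That fit takes the libraries of both tissues as independent, although neighbours in code moved together. With neighbouring codes as a block, a fit chosen after seeing the data, 3 genes passed, where 67.4% of all genes did. Clock was lower in airway by 0.29 ± 0.04 (SE) log2 units, in 10 of 10 pairs of neighbours (adjusted p = 3.63e-09, limma-voom). Dbp was higher in airway by 0.29 ± 0.08, in 9 of 10 (adjusted p = 0.00132, limma-voom), and Arntl by 0.21 ± 0.06, also in 9 of 10 (adjusted p = 0.00248, limma-voom).

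Cigarette smoke was associated with lower Per2, Cry1 and Cry2. Nr1d1 was higher in limma-voom, a call that edgeR and DESeq2 did not make. In airway 4 of 10 genes passed, where 13.7% of all genes did, and in parenchyma 5, where 35.9% did. Per2 ran from 39.7 to 136.8 CPM (median 83.5) with PBS.AIR and from 14.1 to 40.6 CPM (median 31.95) with PBS.CS in airway, and from 51.7 to 148.3 CPM (median 71.01) against 14.1 to 37.04 CPM (median 30.8) in parenchyma. Overlap was limited to airway, at about 40 CPM. Per2 fell by 1.65 ± 0.34 (SE) log2 units (adjusted p = 9.36e-05, limma-voom) and by 1.72 ± 0.34 (adjusted p = 1.53e-05), and was lower with smoke in 10 of 10 runs of codes in both tissues. In parenchyma that count follows from the lack of overlap.

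Cry1 had 33 to 56.2 CPM (median 39.9) with PBS.AIR and 13.1 to 33.7 CPM (median 17.3) with PBS.CS in airway, and 34.98 to 57.4 CPM against 13.6 to 31.2 CPM in parenchyma. The groups met at about 33 CPM in airway and did not overlap in parenchyma. Cry1 fell by 1.11 ± 0.27 (SE) and 1.15 ± 0.28 log2 units, again in 10 of 10 runs, a count that the lack of overlap fixed in parenchyma. Cry2 fell by 0.37 ± 0.09 and 0.54 ± 0.09, and Tef by 0.69 ± 0.26 in parenchyma.

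Nr1d1 had 13.9 to 78.8 CPM (median 58.9) with PBS.CS against 2.57 to 53.2 CPM (median 5.88) with PBS.AIR in airway, and 10.8 to 77.3 CPM (median 39.3) against 1.73 to 60.8 CPM (median 4.33) in parenchyma. The groups overlapped, with smoke the higher in 7 of 10 runs of codes. It rose by 2.10 ± 0.71 (SE) log2 units (adjusted p = 0.0297, limma-voom) and 2.07 ± 0.78 (adjusted p = 0.0290), but with edgeR the log2 fold changes were 1.28 (adjusted p = 0.215) and 1.08 (adjusted p = 0.202), and DESeq2 called neither. Dbp had -0.03 ± 0.68 (95% interval -1.36 to 1.31) and -0.32 ± 0.76 (-1.82 to 1.18). Of the other clock genes 6 fell and 0 rose in airway, where 13.7% of all genes passed. In parenchyma 12 fell and 2 rose, where 35.9% did. Hlf was among them (-1.04 and -1.76). Leukocyte markers moved with smoke too, 3 of 6 being higher in each tissue.

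With HDM and smoke together Per2, Per3, Cry1, Cry2 and Tef were lower in both tissues than in PBS.AIR. The comparisons of HDM, smoke, both and DEX with PBS.AIR all share the same control libraries, so their results are not independent of each other. In airway 6 genes passed, where 49% of all genes did, one of them Nr1d1, higher by 1.66 ± 0.71 (SE) log2 units in limma-voom, a call that edgeR and DESeq2 did not make. In parenchyma 5 passed, where 47.4% did. Per2 had the largest of these falls, 1.83 ± 0.34 and 1.88 ± 0.34 log2 units. Per3 and Tef did not fall in every run of codes. With both exposures Per3 in airway was 54.5 and 57.1 CPM at X97 and X117. With PBS.AIR it was 19.5 and 22.6 CPM at X85 and X105. Tef there was 183.1 and 204.9 CPM against 126.8 and 135.9 CPM. In parenchyma Per3 was 56.4 and 66.2 CPM at X98 and X118, against 23.3 and 21.2 CPM at X86 and X106. Tef was higher there too. Elsewhere Per3 and Tef were lower or nearly level. Among the other clock genes 2 rose and 11 fell in airway and 4 rose and 12 fell in parenchyma.

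A departure from additive effects of HDM and smoke was seen for Cry2 alone of the 10 genes, where 19.1% of all genes passed in airway and 36% in parenchyma. The interaction was 0.47 ± 0.13 (SE) log2 units in airway (adjusted p = 0.00620, limma-voom) and 0.67 ± 0.13 in parenchyma (adjusted p = 1.50e-05). In parenchyma the mean of Cry2 was 71.1 ± 11.7 CPM (SD, n = 10) with PBS.AIR, 35.2 ± 6.37 with HDM.AIR, 48.04 ± 4.89 with PBS.CS and 38.97 ± 4.87 with HDM.CS. The fall with HDM was thus smaller in smoke than in air. Per2, for which HDM and smoke each passed, had an interaction of 0.92 ± 0.48 and 0.83 ± 0.48 that did not.

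**Figure D5:**
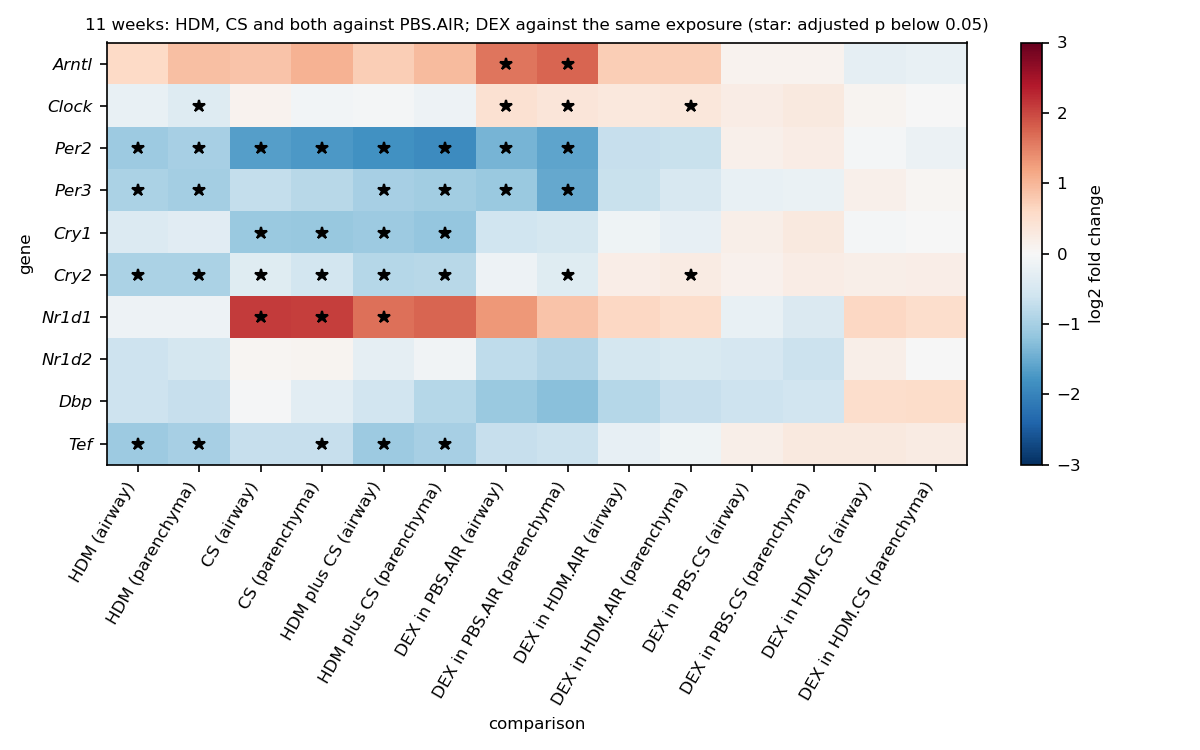
Log2 fold change (colour, from blue for lower to red for higher) of each clock gene (rows) in the 11-week comparisons (columns), with a star for adjusted p under 0.05 in limma-voom. Per2 and Cry2 are blue in each HDM and CS column, Cry1 is starred only where smoke was given, and the DEX columns are starred with PBS.AIR and, for 2 genes, with HDM.AIR in parenchyma.

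Dexamethasone was associated with higher Arntl and Clock and lower Per2 and Per3 in mice without HDM or smoke. With PBS.AIR, 4 genes passed in airway, where 14.9% of all genes did, and 5 in parenchyma, where 22.6% did. Arntl ran from 17.6 to 49.9 CPM (median 42.7) with DEX and from 2.73 to 42.02 CPM (median 17.0) without in airway, and from 18.5 to 42.9 CPM (median 37.2) against 2.40 to 36.4 CPM (median 14.3) in parenchyma. None of the DEX libraries had the very low Arntl of the last 4 control libraries. Arntl rose by 1.61 ± 0.42 (SE) log2 units (adjusted p = 0.00319, limma-voom) and 1.75 ± 0.45 (adjusted p = 0.00191).

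Per2 had 14.3 to 71.4 CPM (median 24.8) with DEX in PBS.AIR airway and 12.2 to 80.95 CPM (median 25.4) in parenchyma, overlapping the controls given above. It fell by 1.40 ± 0.33 (SE) and 1.58 ± 0.33 log2 units and was lower in 10 of 10 runs of codes in both tissues. Per3 fell by 1.11 ± 0.36 and 1.53 ± 0.38, and Clock rose by 0.46 ± 0.13 and 0.36 ± 0.13. Cry2 fell by 0.36 ± 0.09 in parenchyma. Per3 and Clock did not move alike in all runs of codes. In airway Per3 was 25.1 to 42.4 CPM with DEX at X67, X87 and X107. Without DEX it was 19.5 to 22.6 CPM at X65, X85 and X105. In parenchyma Clock was 96.5 to 103.8 CPM with DEX at X68, X88 and X108. Without DEX it was 105.4 to 122.7 CPM at X66, X86 and X106. In the other runs Per3 in airway was lower and Clock in parenchyma higher with DEX. Nr1d1 ran from 4.70 to 121.7 CPM with DEX in airway and had a log2 fold change of 1.31 ± 0.72 (95% interval -0.12 to 2.74), and Dbp had -1.10 ± 0.77 (-2.63 to 0.42), neither of which passed. Npas2 (1.31 and 2.06) and Hlf (-1.14 and -1.84) led the other clock genes. Of these 1 rose and 7 fell in airway, where 14.9% of all genes passed. In parenchyma 2 rose and 7 fell, where 22.6% did.

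With HDM.AIR, 0 genes passed in airway, where 28.6% of all genes did, and 2 in parenchyma, Clock (0.33 ± 0.13 log2 units, SE) and Cry2 (0.24 ± 0.10), where 28.5% did. In airway 3 of the 10 had an unadjusted p under 0.05 in limma-voom and edgeR and DESeq2 each called 1, Clock being nearest (0.32 ± 0.13, adjusted p = 0.0526). Without the library X32, 1 of the 2 calls in parenchyma was left. With PBS.CS no clock gene passed in airway or parenchyma, where 11.3% and 16.9% of all genes did. There 0 and 2 had an unadjusted p under 0.05, edgeR called 0 in both, and DESeq2 called 0 and 1. With HDM.CS again none passed, where 9.30% and 7.86% of all genes did, with 0 and 1 at an unadjusted p under 0.05 and 0 by edgeR and DESeq2. Differences between exposures in the DEX effect were not tested.

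Averaged over the 4 exposures, libraries with DEX had higher Arntl (0.54 ± 0.20 and 0.60 ± 0.21 log2 units, SE) and Clock (0.27 ± 0.07 and 0.24 ± 0.07) and lower Per2 (-0.50 ± 0.17 and -0.55 ± 0.17) and Per3 (-0.46 ± 0.19 and -0.54 ± 0.19) in airway and parenchyma. These were the 4 genes that passed in each tissue, where 41.1% and 39.1% of all genes did, the call of Per3 in airway being lost under 5 alternatives and that of Per2 in parenchyma with edgeR and DESeq2. No member of the 10 had a DEX effect that differed between the tissues in limma-voom, where 0.268% of all genes did, with 0 at an unadjusted p under 0.05 and 0 by edgeR and DESeq2. The mean effect was also read in 8 genes that glucocorticoids are known to induce, as a check of the DEX label. In airway 1 rose, Sgk1 by 0.14 log2 units, and 3 fell, and in parenchyma 0 rose and 3 fell, Zbtb16 by 1.14, Tsc22d3 by 0.57 and Per1 by 0.50. Apart from the rise of Sgk1 in airway, induction of these genes by DEX is thus not seen on average at the time the tissue was taken. The interval from the last dose is not in the labels. Per1 is also among the other clock genes, and its standard deviation within groups at 11 weeks was 0.74 log2 units.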

How the data were processed

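RNA-seq of airway and parenchyma was analysed in 20 groups of libraries, taken from the labels. Per the labels and methods, the authors aligned 100 base single reads to mm10 with STAR 2.5.1b and quantified genes with RSEM 1.2.31 and kallisto 0.44.0, after bcl2fastq 2.20.0.422. The authors deposited estimated counts per gene, not scaled for depth, and which quantifier made them is not given in the sources used here. Of non-zero values 20.3% were not whole, and values were rounded. Identifiers were matched without version to GENCODE M21 (42462 of 43346 had a symbol). No pair of libraries in a group agreed within sampling noise.

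limma 3.58.1 with voom and TMM factors from edgeR 4.0.16 was fitted in R 4.3.3 to the 43 libraries at 3 weeks, the 160 at 11 weeks, or all libraries for contrasts of times, with one mean per group. Genes were kept where 9 or more libraries had the CPM that 10 counts make in a library of median size, and p-values were adjusted over all genes tested (Benjamini-Hochberg, threshold 0.05). No label pairs libraries, and none of the labels says that libraries come from separate animals, so p-values measure the spread between libraries. Levels are TMM-scaled CPM, and deviations are log2 CPM with a prior count of 2 minus the group mean. The counts of calls were recomputed under other scaling, filters, libraries and tools (DESeq2 1.42.0), with a term for each run of 20 consecutive codes among them, and for comparisons between tissues with neighbouring codes (79 at 11 weeks, 21 at 3 weeks) as a block. On simulated counts for the HDM effect at 3 weeks in airway (17192 genes), 70% of genes changed 1.5-fold and 93% of those changed 2-fold were recovered. The 10 clock genes and the gene lists were chosen with earlier results of these data known. The rule for named genes took all 10 clock genes in every comparison and, of 18 others, those with the largest changes among those that passed, and the text gives the members that passed and the widest of the rest. Some of these others are not reported here by name. Figures were drawn with matplotlib.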

Additional observations from a re-analysis of the deposited data

Results flagged for a closer look

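A library far from the others of its group was looked for in 180 combinations of a clock gene and a group of 10 libraries, and 2 were found. The rule compared the gap beside the outermost library with the range of its group. The 5% that chance gives holds for groups that form a single cluster. Both were in HDM parenchyma at 3 weeks. In the library X64 Cry1 was highest at 39.4 CPM, the next library having 30.1 CPM. In the library X4 Tef was highest at 159.3 CPM, against 108.8 CPM in the next. No group at 11 weeks held such a library, but where a group falls into sets, several libraries lie at each end. The rule can hardly flag a library there.

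An effect that differed between settings by a test of the difference was found for 11 of 60 tests in limma-voom, spread over 6 comparisons in which 17.3%, 19.1%, 36%, 28.4%, 42.4% and 0.268% of all genes passed, and nothing particular to the clock genes is read from the count. Between tissues, the HDM effect at 3 weeks differed by 0.24 log2 units for Clock and 0.40 for Cry2. HDM and smoke departed from additivity for Cry2, by 0.47 in airway and 0.67 in parenchyma. Between 11 and 3 weeks the HDM effect in airway differed by -0.47 for Clock, -0.94 for Cry1 and 2.16 for Dbp, and in parenchyma by -0.46 for Clock, -1.001 for Cry1, 0.49 for Cry2 and 1.496 for Nr1d2.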

How the results depend on the processing

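No call of a clock gene changed direction under any alternative, and 85 to 94 of 95 calls were kept under each alternative that covered all comparisons. The number of clock genes passing moved by over 1.5 times in few comparisons. The tissue difference of the HDM effect at 3 weeks went from 2 to 1 with DESeq2 size factors, a filter of 10 CPM, no filter, the libraries of both times in one fit, and DESeq2. Airway against parenchyma in PBS at 3 weeks went from 5 to 2 with only the libraries compared and to 0 with both times in one fit. The interaction of HDM and smoke in parenchyma went from 1 to 2, and the HDM effect at 11 against 3 weeks in parenchyma from 4 to 7, with sample quality weights. DEX with HDM.AIR in airway went from 0 to 2 with only the libraries compared and with quality weights, and to 1 with DESeq2 size factors, both times in one fit, the term for runs of codes, edgeR and DESeq2. In parenchyma it went from 2 to 1 with the 10 CPM filter and without the library X32 (chosen after seeing the data), and to 0 with no filter and with quality weights. DEX with PBS.CS in parenchyma went from 0 to 1 with only the libraries compared, both times in one fit, quality weights, the term for runs and DESeq2. Airway against parenchyma in PBS.AIR went from 0 to 1 with both times in one fit and with the term for runs. The cause was not tested. DESeq2 size factors moved the median log2 fold change of all genes by at most 0.09, for HDM in parenchyma at 3 weeks. The labels pair no libraries. With neighbouring codes taken as a replicate block (chosen after seeing the data), airway against parenchyma in PBS.AIR went from 0 to 3, while the counts stayed at 2 for the tissue difference of the HDM effect at 3 weeks, 5 for PBS at 3 weeks and 0 for the tissue difference of the DEX effect. The limit is the 11-week groups, whose libraries fall into runs of codes. The term for runs stands for blocks of consecutive codes that all groups share. The sets of high and low libraries lie at different codes in different exposures, so this term cannot take them up in full. It took up 10.8% (Arntl) to 45.2% (Cry1) of the within-group variance of the clock genes at 11 weeks, and 16.6% for the median gene. How much of that variance lies between the sets within each group was not tested. In airway at 3 weeks the HDM calls of Clock (0.23) and Cry1 (0.50) were lost with both times in one fit.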
